A study of Homo sapiens with 40 samples.

Results

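The S100 genes encode small calcium-binding proteins, and 10 of them were chosen by symbol: S100A2, S100A4, S100A6, S100A7, S100A8, S100A9, S100A10, S100A11, S100A14 and S100A16. Rows for 8 of the 10 were found among the 12655 genes of the count table, and S100A7 and S100A8 were not analysed here. RNA came from 2 human squamous carcinoma lines, FaDu from a hypopharyngeal tumour and Kyse30 from the oesophagus, each labelled wildtype and each carrying Dendra2, a fluorescent protein that light turns from green to red. Spheroids of each line were kept in type I collagen for 72 h and gave 5 groups of 4 libraries. These were spheroids given 9 nM epidermal growth factor (EGF) with 100 nM AZD6244, an inhibitor of the kinase MEK, spheroids given 9 nM EGF with 10 µg/mL cetuximab, an antibody against the EGF receptor, invasive cells and non-invasive cells sorted from spheroids given 9 nM EGF alone, and spheroids in serum-free medium with no EGF. The labels describe the first 2 and the serum-free groups as unselected, whereas the invasive and non-invasive cells were selected after photoconversion, so treatment and selection cannot be told apart where the non-invasive cells are compared with another treatment. Each line is 1 cell line, and a difference between them describes these lines.

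S100 proteins carry paired EF-hand loops, mostly work as dimers, and change shape on calcium binding so that they can grip target proteins such as annexins and myosin. Most of their genes lie in a cluster on the long arm of chromosome 1, beside the epidermal differentiation genes, and squamous epithelium is known for strong expression of several of them. Some members also act outside cells on receptors such as RAGE and TLR4.

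Levels are given as CPM, a gene's counts relative to its library's total, after TMM correction across all 40 libraries. The library kit reads the 3' end of each transcript, so CPM was not divided by length. Totals ran from 2312126 to 5669262 counts in 39 libraries, whereas replicate 1 of the invasive Kyse30 cells held 463124 counts and 5281 detected genes, against 11631 or more detected genes in every other library. That library also had 26.6% of its counts in mitochondrial transcripts and 8.18% in MALAT1, a long RNA kept in the nucleus. In the non-invasive Kyse30 cells MALAT1 took 6.27% and 9.63% of replicates 1 and 3, against 1.68% and 1.91% of replicates 2 and 4. All 7 squamous epithelial markers looked for were in the table, and their summed level was 1532 to 3573 CPM in FaDu and 549 to 2613 CPM in Kyse30. Of the markers of other cell types, the table held 1 of 9 for leukocytes (CD68), 1 of 8 for fibroblasts (COL1A1) and 1 of 4 for endothelium (CDH5). CD68 stood at 47.5 CPM in replicate 1 of the invasive Kyse30 cells and at 0 to 10.9 CPM elsewhere. COL1A1 stood at 0 to 24.6 CPM and CDH5 at 0 to 34.2 CPM. In these bulk samples fewer cells of a type and less RNA per cell cannot be told apart.

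On GRCh38 (GENCODE v29) the 8 genes lie on chromosome 1, 7 of them on the minus strand and S100A9 on the plus strand. S100A16 at chr1:153606886-153613145 and S100A14 at chr1:153614255-153616986 are neighbours separated by 1110 bases, and S100A6, S100A4 and S100A2 follow each other in the same stretch with gaps of 7369 and 10972 bases. Exons of S100A6 overlap an opposite-strand gene, BX470102.1, and with no strand setting given in the sources used here reads of the 2 cannot be told apart.

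The 250 bases before the RefSeq start (GRCh38.p14, written 5' to 3' on the gene's strand) are shown for 4 genes whose group means lay at opposite ends of their range in FaDu cells given EGF alone: S100A2 and S100A16, whose means were highest in cells given EGF alone in both lines, and S100A4 and S100A9, whose means were lowest in FaDu cells given EGF alone. The means of S100A6 were also lowest in FaDu cells given EGF alone. Those of S100A14 were also highest with EGF alone in both lines. The stretches of S100A6 and S100A14 are not shown. Capitals mark matches to TGANTCA, the core of the AP-1 element, or to TATAAA, both searched on either strand.
S100A2, chr1:153565845-153566094, minus strand: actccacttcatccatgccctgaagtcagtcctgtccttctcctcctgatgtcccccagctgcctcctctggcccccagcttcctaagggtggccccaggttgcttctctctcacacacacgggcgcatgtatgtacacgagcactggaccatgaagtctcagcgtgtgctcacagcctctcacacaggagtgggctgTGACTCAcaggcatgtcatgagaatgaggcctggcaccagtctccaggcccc
S100A16, chr1:153613138-153613387, minus strand: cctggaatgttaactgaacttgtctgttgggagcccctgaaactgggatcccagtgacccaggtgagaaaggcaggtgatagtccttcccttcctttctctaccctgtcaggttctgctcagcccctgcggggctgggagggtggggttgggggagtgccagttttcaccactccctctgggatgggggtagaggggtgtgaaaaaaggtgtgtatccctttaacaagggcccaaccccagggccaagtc
S100A4, chr1:153545807-153546056, minus strand: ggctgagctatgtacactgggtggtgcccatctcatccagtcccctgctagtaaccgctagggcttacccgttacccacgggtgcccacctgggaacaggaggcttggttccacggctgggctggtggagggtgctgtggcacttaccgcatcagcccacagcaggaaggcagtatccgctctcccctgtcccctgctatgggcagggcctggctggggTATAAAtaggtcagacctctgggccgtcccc
S100A9, chr1:153357604-153357853, plus strand: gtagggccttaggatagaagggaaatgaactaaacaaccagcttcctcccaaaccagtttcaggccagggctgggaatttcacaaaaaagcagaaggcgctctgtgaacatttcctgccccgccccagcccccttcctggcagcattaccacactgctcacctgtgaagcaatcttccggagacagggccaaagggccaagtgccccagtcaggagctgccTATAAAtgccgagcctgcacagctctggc
TGANTCA occurred once before S100A2, 52 bases ahead of the start, and 6.57% of 35116 RefSeq promoter stretches of this length held it. TATAAA occurred before S100A4 and S100A9, 31 and 29 bases ahead of their starts, and 10.7% of all stretches held it. Neither run of letters was found before the first start of S100A16, before the second RefSeq starts of S100A2 and S100A16, or before S100A6, S100A10, S100A11 and S100A14. These matches describe letters in the window and say nothing of binding.

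S100A2, a protein of basal squamous cells that is found mainly in the nucleus, had the most counts of the members in every FaDu group except serum-free spheroids, where S100A6 had more, and was higher in non-invasive cells given EGF alone than in serum-free spheroids in both lines. In FaDu it stood at 1189, 1628, 1982 and 1996 CPM with the MEK inhibitor, at 3587, 3184, 2340.2 and 3295 CPM with cetuximab, at 8502, 8123, 8444 and 7374 CPM in invasive cells, at 7244, 8896, 8153 and 7668 CPM in non-invasive cells and at 1112, 1024, 1157 and 1115 CPM without serum. The libraries of the FaDu groups did not overlap except between invasive and non-invasive cells. In Kyse30 it stood at 6.25, 8.04, 8.09 and 12.8 CPM with the MEK inhibitor, at 17.7, 45.1, 19.8 and 38.0 CPM with cetuximab, at 1.90, 340.0, 520.4 and 498 CPM in invasive cells, at 120.2, 229.8, 109 and 279.9 CPM in non-invasive cells and at 8.80, 6.30, 9.32 and 19.2 CPM without serum. The value of 1.90 CPM is 1 count in the shallow library, and the other invasive Kyse30 libraries all lay above the non-invasive ones. The MEK inhibitor and serum-free libraries of Kyse30 overlapped.

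Non-invasive cells held 7.23-fold more S100A2 than serum-free spheroids in FaDu (log2 fold change 2.85 ± 0.15 SE, edgeR adjusted p = 4.9e-14) and 16.9-fold more in Kyse30 (4.08 ± 0.67, adjusted p = 0.000164). With cetuximab the level differed from that of non-invasive cells by -1.36 ± 0.14 log2 units in FaDu (adjusted p = 3.46e-07) and by -2.65 ± 0.61 in Kyse30 (adjusted p = 0.0103). The Kyse30 call was lost without cetuximab replicate 1 or 3, at -2.46 (adjusted p = 0.063) and -2.49 (adjusted p = 0.0528), and held without the shallow library (adjusted p = 0.000137). With the MEK inhibitor the differences were -2.23 ± 0.15 in FaDu (adjusted p = 9.75e-12) and -4.40 ± 0.67 in Kyse30 (adjusted p = 0.000167), where S100A2 had the 26th largest absolute fold change of 11976 genes. MEK inhibitor spheroids held less S100A2 than cetuximab spheroids in FaDu (-0.87 ± 0.14, adjusted p = 7.36e-05). In Kyse30 that difference was -1.75 ± 0.63 with an adjusted p of 0.279 over all libraries and 0.0194 without the shallow library.

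**Figure D1:**
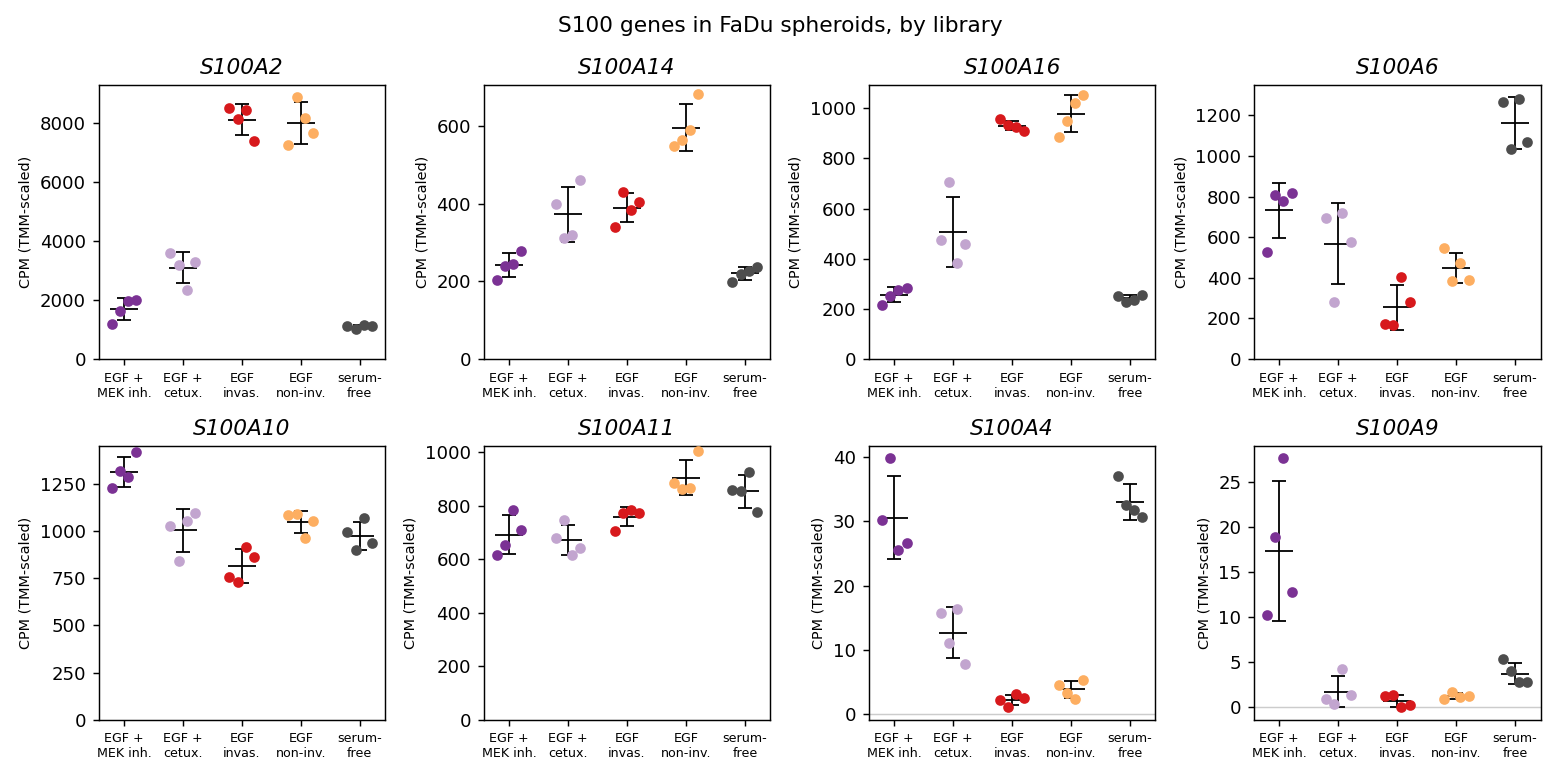
Levels of the 8 S100 genes in FaDu, in TMM-scaled CPM on linear axes, by group; points are the 4 libraries, and the horizontal line and bars are their mean ± SD. By their means S100A2, S100A14 and S100A16 stand highest in the invasive and non-invasive groups, whereas S100A4, S100A6 and S100A9 stand lowest there. Cetuximab libraries overlap the invasive ones in S100A14 and both of these groups in S100A6 and S100A9. In S100A6 the MEK inhibitor libraries also overlap the non-invasive ones.

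S100A14 and S100A16, epithelial members whose genes are neighbours, were also higher in cells given EGF alone than without serum in both lines. S100A16 in FaDu had 216, 252, 276 and 282 CPM with the MEK inhibitor, 475, 705, 384 and 458 CPM with cetuximab, 957, 933, 925 and 910.2 CPM in invasive cells, 887, 951, 1021 and 1051 CPM in non-invasive cells and 252, 228, 237 and 254 CPM without serum. Serum-free and MEK inhibitor libraries overlapped near the bottom, cetuximab libraries lay between, and both EGF-only groups lay above them and overlapped each other. S100A16 in Kyse30 had 215, 224, 226 and 207 CPM with the MEK inhibitor, 432, 321, 304 and 302 CPM with cetuximab, 179, 733, 881 and 891 CPM in invasive cells, 386, 510.3, 349.6 and 552 CPM in non-invasive cells and 167, 158, 160.4 and 170.3 CPM without serum. The 179 CPM came from the shallow library, and the other 3 invasive libraries were above every non-invasive one. S100A14 averaged 242 ± 30.8, 373 ± 70.7, 391 ± 37.7, 597 ± 59.9 and 221 ± 17.2 CPM (SD, n = 4 each) in FaDu with the MEK inhibitor, with cetuximab, in invasive cells, in non-invasive cells and without serum. In Kyse30 its means in the same order were 324 ± 40.3, 418 ± 95.7, 953 ± 154, 658 ± 151 and 294 ± 44.4 CPM (SD, n = 4 each). The highest mean was that of non-invasive cells in FaDu and of invasive cells in Kyse30. In Kyse30 these 2 groups overlapped through the shallow invasive library alone.

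Relative to serum-free spheroids, S100A16 was 4.02-fold higher in non-invasive FaDu cells (2.01 ± 0.14 log2 units, edgeR adjusted p = 7.61e-12) and 2.71-fold higher in non-invasive Kyse30 cells (1.44 ± 0.28, adjusted p = 0.000833). S100A14 was 2.70-fold higher in FaDu (1.43 ± 0.13, adjusted p = 1.29e-09) and 2.21-fold higher in Kyse30 (1.14 ± 0.20, adjusted p = 0.000283). Both genes fell with the MEK inhibitor relative to non-invasive cells. S100A16 changed by -1.93 ± 0.14 in FaDu (adjusted p = 4.82e-11) and by -1.05 ± 0.27 in Kyse30 (adjusted p = 0.0223), and S100A14 by -1.30 ± 0.13 in FaDu (adjusted p = 1.95e-08) and by -1.03 ± 0.20 in Kyse30 (adjusted p = 0.0019). The Kyse30 call for S100A16 was lost when any of non-invasive replicates 2 and 4 or the 4 MEK inhibitor replicates was left out, with values from -1.07 to -0.94 and adjusted p up to 0.113, but stood at 1e-05 without the shallow library. With cetuximab S100A16 changed by -0.95 ± 0.14 in FaDu (adjusted p = 2.86e-05). In Kyse30 its difference was -0.45 ± 0.27, with an adjusted p of 0.395 over all libraries and 0.0313 without the shallow one. With cetuximab S100A14 changed by -0.68 ± 0.13 in FaDu (adjusted p = 0.00092) and by -0.69 ± 0.20 in Kyse30 (adjusted p = 0.0386), and in Kyse30 the libraries of the groups overlapped. Without cetuximab replicate 1, 3 or 4 or non-invasive replicate 1, 2 or 4 that Kyse30 call for S100A14 was lost, with values of -0.77 to -0.54 and adjusted p up to 0.184.

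**Figure D2:**
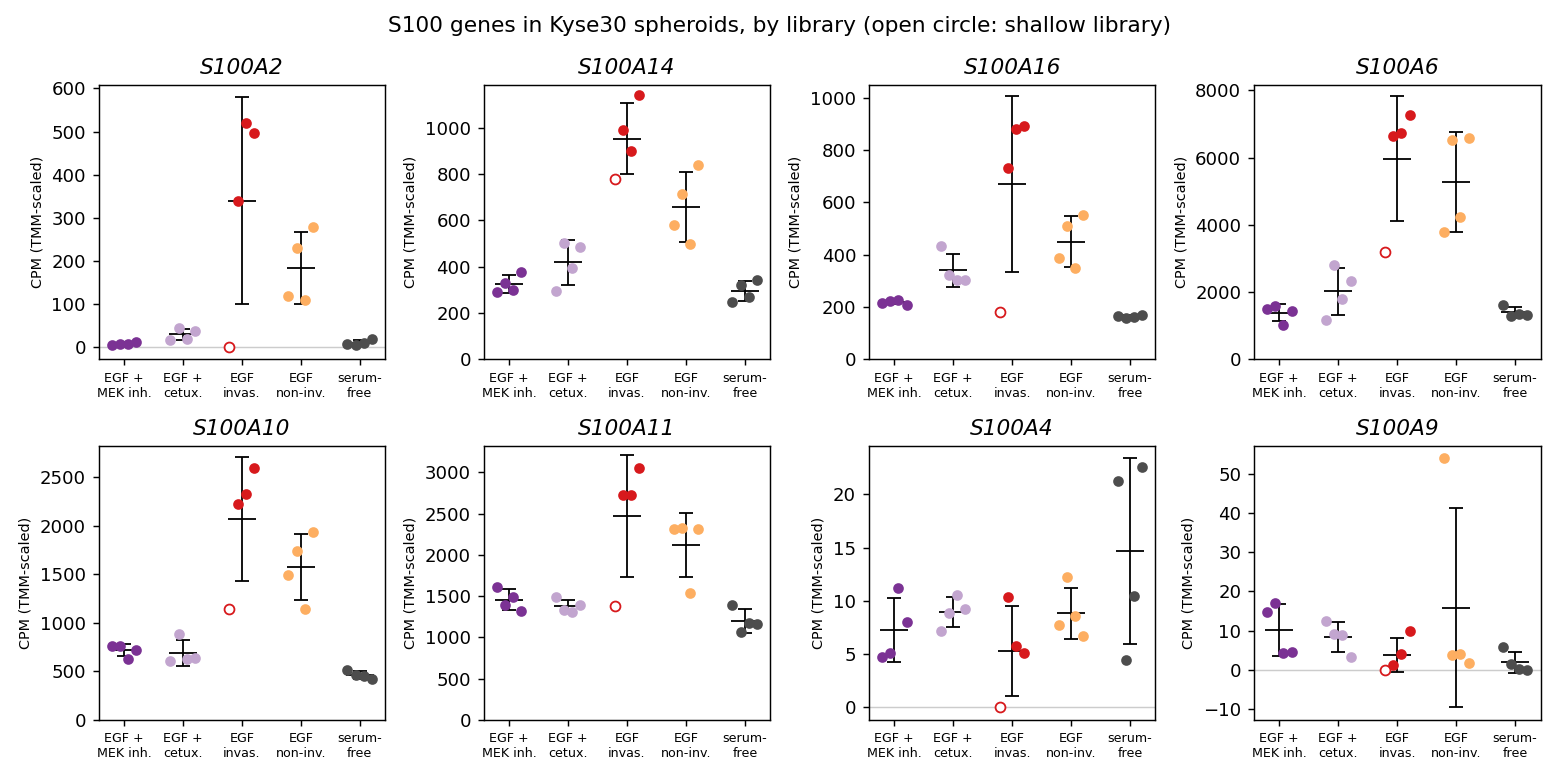
Levels of the 8 S100 genes in Kyse30, in TMM-scaled CPM on linear axes, by group; points are the 4 libraries, the open circle is the shallow invasive library, and the horizontal line and bars are mean ± SD. S100A2, S100A14, S100A16, S100A6, S100A10 and S100A11 all stand higher in the non-invasive libraries than without serum, and 1 non-invasive library carries most of the S100A9 signal.

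S100A10 and S100A11 are the annexin partners of the family. S100A10, which does not bind calcium and pairs with annexin A2, spanned 0.69 log2 units over the group means in FaDu and 2.17 in Kyse30. In FaDu its means were 1312 ± 80.0, 1004 ± 113, 815 ± 88.3, 1047 ± 58.8 and 975 ± 74.0 CPM (SD, n = 4 each) with the MEK inhibitor, with cetuximab, in invasive cells, in non-invasive cells and without serum. In Kyse30 it had 758, 759.7, 631 and 719 CPM with the MEK inhibitor, 602, 884, 627 and 633 CPM with cetuximab, 1140.2, 2227, 2328 and 2592 CPM in invasive cells, 1494, 1739.5, 1145 and 1935 CPM in non-invasive cells and 514, 459.6, 449 and 420.4 CPM without serum. Every non-invasive Kyse30 library was above every cetuximab, MEK inhibitor and serum-free library. The non-invasive cells of Kyse30 held 3.39-fold more S100A10 than serum-free spheroids (1.76 ± 0.20 log2 units, edgeR adjusted p = 1.63e-06), against a difference of 0.10 ± 0.11 in FaDu (adjusted p = 0.473). In Kyse30 it was lower with cetuximab, at -1.24 ± 0.20 (adjusted p = 0.00036), and with the MEK inhibitor, at -1.15 ± 0.20 (adjusted p = 0.000692). In FaDu the cetuximab difference was -0.06 ± 0.11 (adjusted p = 0.808), and S100A10 was higher with the MEK inhibitor at 0.33 ± 0.11 (adjusted p = 0.025). That FaDu call was lost without non-invasive replicate 3 (0.29, adjusted p = 0.0828) or MEK inhibitor replicate 4 (0.29, adjusted p = 0.0755).

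S100A11, a partner of annexin A1, moved least. In FaDu the means with the MEK inhibitor, with cetuximab, in invasive cells, in non-invasive cells and without serum were 691 ± 73.1, 671 ± 56.4, 758 ± 35.4, 905 ± 67.0 and 854 ± 61.8 CPM, and in Kyse30 they were 1454 ± 128, 1379 ± 79.5, 2472 ± 744, 2120.0 ± 390.4 and 1196 ± 142 CPM (SD, n = 4 each). It rose in non-invasive Kyse30 cells by 0.81 ± 0.18 log2 units over serum-free spheroids (edgeR adjusted p = 0.00342) and differed by 0.08 ± 0.11 in FaDu (adjusted p = 0.556). With cetuximab it was lower in FaDu at -0.43 ± 0.11 (adjusted p = 0.00924) and in Kyse30 at -0.67 ± 0.18 (adjusted p = 0.0297), and with the MEK inhibitor it was lower in FaDu at -0.39 ± 0.11 (adjusted p = 0.00673). In Kyse30 the MEK inhibitor difference of S100A11 was -0.55 ± 0.18 (adjusted p = 0.0821), called without the shallow library (adjusted p = 0.00657) and without non-invasive replicate 3 (adjusted p = 0.0399). The Kyse30 cetuximab call of S100A11 was lost when any cetuximab replicate or non-invasive replicate 1, 2 or 4 was left out, with values from -0.69 to -0.62 and adjusted p up to 0.116, and held without the shallow library (adjusted p = 0.00133). Non-invasive Kyse30 replicate 3, at 1534 CPM against 2310.0 to 2322 CPM in the other 3, had 19.3% mitochondrial and 9.63% MALAT1 counts, whose part in its low S100A11 was not tested.

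S100A6, calcyclin, which binds the calcyclin-binding protein CACYBP, moved in opposite directions in the 2 lines between non-invasive cells and serum-free spheroids. In FaDu it stood at 528, 806, 778 and 816 CPM with the MEK inhibitor, at 695, 283, 718 and 577 CPM with cetuximab, at 170.2, 169.7, 402 and 279.8 CPM in invasive cells, at 546, 385, 473 and 391 CPM in non-invasive cells and at 1267, 1033, 1282 and 1069.9 CPM without serum. Serum-free libraries lay above all others, and the remaining neighbours overlapped. In Kyse30 it stood at 1499, 1593, 1018 and 1427 CPM with the MEK inhibitor, at 1157, 2789, 1795 and 2317 CPM with cetuximab, at 3196, 6630.5, 6738 and 7274 CPM in invasive cells, at 3787, 6527, 4221 and 6577 CPM in non-invasive cells and at 1617, 1284, 1334 and 1319.7 CPM without serum. The EGF-only groups of Kyse30 lay above all others, and within the non-invasive group replicates 1 and 3, with high MALAT1 shares, were the lower pair. Those replicates were also the lower pair of that group in S100A2, S100A10, S100A14 and S100A16.

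Non-invasive cells differed from serum-free spheroids in S100A6 by -1.38 ± 0.28 log2 units in FaDu (edgeR adjusted p = 0.000472) and by 1.91 ± 0.26 in Kyse30 (adjusted p = 1.27e-05). The difference between the lines, FaDu minus Kyse30, was -3.30 ± 0.39 (adjusted p = 5.42e-08). In Kyse30 S100A6 was lower with cetuximab at -1.43 ± 0.25 (adjusted p = 0.000936) and with the MEK inhibitor at -1.94 ± 0.26 (adjusted p = 2.4e-05). In FaDu the cetuximab difference was 0.34 ± 0.28 (adjusted p = 0.523) and the MEK inhibitor difference 0.71 ± 0.28 (adjusted p = 0.0608). The last of these, in which the MEK inhibitor libraries stood higher on average, passed the threshold in DESeq2 (adjusted p = 0.0166), in limma-voom (adjusted p = 0.0277), with the 2 groups alone (adjusted p = 0.00377) and without MEK inhibitor replicate 1 (0.83, adjusted p = 0.049). The lines differed in the response of S100A6 to cetuximab by 1.73 ± 0.38 (adjusted p = 0.0089) and to the MEK inhibitor by 2.64 ± 0.38 (adjusted p = 1.17e-05).

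S100A4, which binds non-muscle myosin and is widely used as a mesenchymal marker, and S100A9, which with S100A8 forms calprotectin and is abundant in neutrophils and in stressed keratinocytes, had the fewest counts of the members in every FaDu group. In Kyse30 they did so with cetuximab and in invasive and non-invasive cells, whereas S100A2 had fewer counts than S100A9 with the MEK inhibitor and fewer than S100A4 without serum. S100A4 in FaDu stood at 30.2, 39.9, 25.6 and 26.6 CPM with the MEK inhibitor, at 15.7, 11.02, 16.3 and 7.74 CPM with cetuximab, at 2.15, 1.01, 3.05 and 2.39 CPM in invasive cells, at 4.48, 3.27, 2.23 and 5.32 CPM in non-invasive cells and at 37.1, 32.5, 31.7 and 30.7 CPM without serum. Cetuximab libraries lay above all EGF-only libraries and below all MEK inhibitor and serum-free libraries, which overlapped each other. In Kyse30 S100A4 averaged 7.26 ± 3.03, 8.95 ± 1.39, 5.31 ± 4.25, 8.82 ± 2.44 and 14.7 ± 8.72 CPM in the same order (SD, n = 4 each), and all neighbouring groups overlapped. The invasive FaDu group rests on 32 counts of S100A4 and the non-invasive group on 66.

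In FaDu S100A4 fell to 0.116 of the serum-free level in non-invasive cells (-3.10 ± 0.29 log2 units, edgeR adjusted p = 1.57e-09). It was 3.30-fold higher with cetuximab than in non-invasive cells (1.72 ± 0.29, adjusted p = 0.000245), 7.97-fold higher with the MEK inhibitor (2.99 ± 0.29, adjusted p = 8.03e-09) and 2.41-fold higher with the MEK inhibitor than with cetuximab (1.27 ± 0.26, adjusted p = 0.000751). COL1A1, the fibroblast marker in the table, ranged over 9.37 to 24.6 CPM with the MEK inhibitor, 6.03 to 15.5 CPM with cetuximab, 3.35 to 9.74 CPM in invasive cells, 4.43 to 10.9 CPM in non-invasive cells and 16.9 to 22.4 CPM without serum in FaDu, and its part in the S100A4 pattern was not tested. Mitochondrial transcripts took 7.50% to 11.5% of counts in non-invasive and 14.3% to 15.8% in serum-free FaDu libraries, and their part was likewise not tested. In Kyse30 the differences of S100A4 were -0.73 ± 0.49 for non-invasive cells against serum-free spheroids (adjusted p = 0.375), -0.02 ± 0.49 for cetuximab (adjusted p = 0.987) and -0.30 ± 0.50 for the MEK inhibitor (adjusted p = 0.857), the last 2 against non-invasive cells.

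S100A9 in FaDu stood at 10.2, 18.9, 27.7 and 12.8 CPM with the MEK inhibitor, at 0.895, 0.315, 4.22 and 1.38 CPM with cetuximab, at 1.20, 1.34, 0 and 0.239 CPM in invasive cells, at 0.897, 1.63, 1.12 and 1.21 CPM in non-invasive cells and at 5.30, 3.98, 2.83 and 2.77 CPM without serum. The MEK inhibitor libraries lay above all others, on 305 counts against 21 in non-invasive cells. It was 14.1-fold higher with the MEK inhibitor than in non-invasive cells (3.82 ± 0.56 log2 units, edgeR adjusted p = 7.81e-06) and 9.68-fold higher than with cetuximab (3.28 ± 0.53, adjusted p = 6.66e-05), in 4 of 4 libraries in each case. Non-invasive cells differed from serum-free spheroids by -1.57 ± 0.60 (adjusted p = 0.0297), a call for S100A9 that was lost without non-invasive replicate 1, 3 or 4 or serum-free replicate 1 or 2, at -1.57 to -1.38 with adjusted p up to 0.0798. CD68, the leukocyte marker in the table, ranged in FaDu over 0 to 2.54 CPM with the MEK inhibitor and 1.79 to 6.93 CPM with cetuximab. CD68 ranged over 3.59 to 7.73 CPM in invasive cells, 6.95 to 10.9 CPM in non-invasive cells and 0 to 1.7 CPM without serum. Its part in the S100A9 pattern was not tested.

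In Kyse30 S100A9 stood at 14.7, 17.1, 4.44 and 4.52 CPM with the MEK inhibitor, at 12.4, 9.29, 8.86 and 3.34 CPM with cetuximab, at 0, 1.26, 4.10 and 9.90 CPM in invasive cells, at 53.9, 3.73, 4.10 and 1.84 CPM in non-invasive cells and at 5.87, 1.58, 0.388 and 0 CPM without serum. All groups overlapped with their neighbours, and non-invasive replicate 1, with 174 of that group's 210 counts, stood apart. Non-invasive cells differed from serum-free spheroids by 2.97 ± 1.00 log2 units (edgeR adjusted p = 0.0496). Without non-invasive replicate 1 that difference of S100A9 was 0.66 ± 0.89 (adjusted p = 0.716), and it also missed the threshold without serum-free replicate 2, 3 or 4, at 2.59 to 2.87 with adjusted p of 0.12 to 0.137. The S100A9 call in Kyse30 was thus lost without any 1 of these 4 libraries.

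Of the 8 genes, 6 were called between non-invasive cells and serum-free spheroids in FaDu, 3 higher and 3 lower, where 50.0% of the 12131 genes tested were called, 25.3% higher and 24.7% lower. In Kyse30 7 of 8 were called, all higher, against 12.9% of 11976 genes called, 8.10% higher and 4.76% lower. The median log2 fold change of the 8 was 0.09 in FaDu, against -0.02 over all genes, and 1.60 in Kyse30, against 0.03 over all genes. With that share of all genes called, the FaDu count says little about these 8, and their FaDu median covers changes in both directions. In Kyse30 6 of the 8 were called without the shallow library, S100A9 being the one lost, where 27.8% of all genes were called. Mitochondrial transcripts took 8.22% to 19.25% of counts in non-invasive and 19.65% to 23.83% in serum-free Kyse30 libraries. With library sizes that leave out mitochondrial genes and MALAT1, 6 of the 8 were called, all higher, where 1482 of 11976 genes were called. That setting changes the scaling alone, and the part of the mitochondrial shares in these calls was not tested. Of the other-cell-type markers, CDH5 in Kyse30 ranged over 8.78 to 13.05 CPM with the MEK inhibitor, 12.7 to 29.3 CPM with cetuximab, 0 to 2.83 CPM in invasive cells, 3.72 to 6.70 CPM in non-invasive cells and 16.1 to 34.2 CPM without serum, and its part in the Kyse30 counts was not tested.

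With cetuximab 5 of 8 genes were called against non-invasive cells in each line. In FaDu 4 were lower (S100A2, S100A11, S100A14, S100A16) and S100A4 was higher, where 8.56% of all genes were called, 3.64% higher and 4.93% lower. In Kyse30 all 5 were lower (S100A2, S100A6, S100A10, S100A11, S100A14), where 4.93% were called, 1.85% higher and 3.08% lower. The medians of the 8 were -0.25 in FaDu, against 0.05 over all genes, and -0.83 in Kyse30, against -0.03. With the MEK inhibitor 7 of 8 were called in FaDu, 3 higher and 4 lower, against 29.7% of all genes, 14.8% higher and 14.9% lower. In Kyse30 5 of 8 were called, all lower, against 4.56% of all genes, 1.65% higher and 2.91% lower. Their medians were -0.03 in FaDu, against 0.03 over all genes, and -1.04 in Kyse30, against -0.02. Without the shallow library 6 of 8 were lower in Kyse30 under each drug, where 17.1% of all genes were called with cetuximab and 14.4% with the MEK inhibitor. The Kyse30 cetuximab count was 2 without cetuximab replicate 1 or 3, and 3 without cetuximab replicate 4 or non-invasive replicate 1, 2 or 4. Over all genes 316 and 317 were called in the first 2 cases and 347 to 462 in the others, against 590 with all libraries. The EGF, cetuximab and MEK inhibitor comparisons of a line share the 4 non-invasive libraries.

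**Figure D3:**
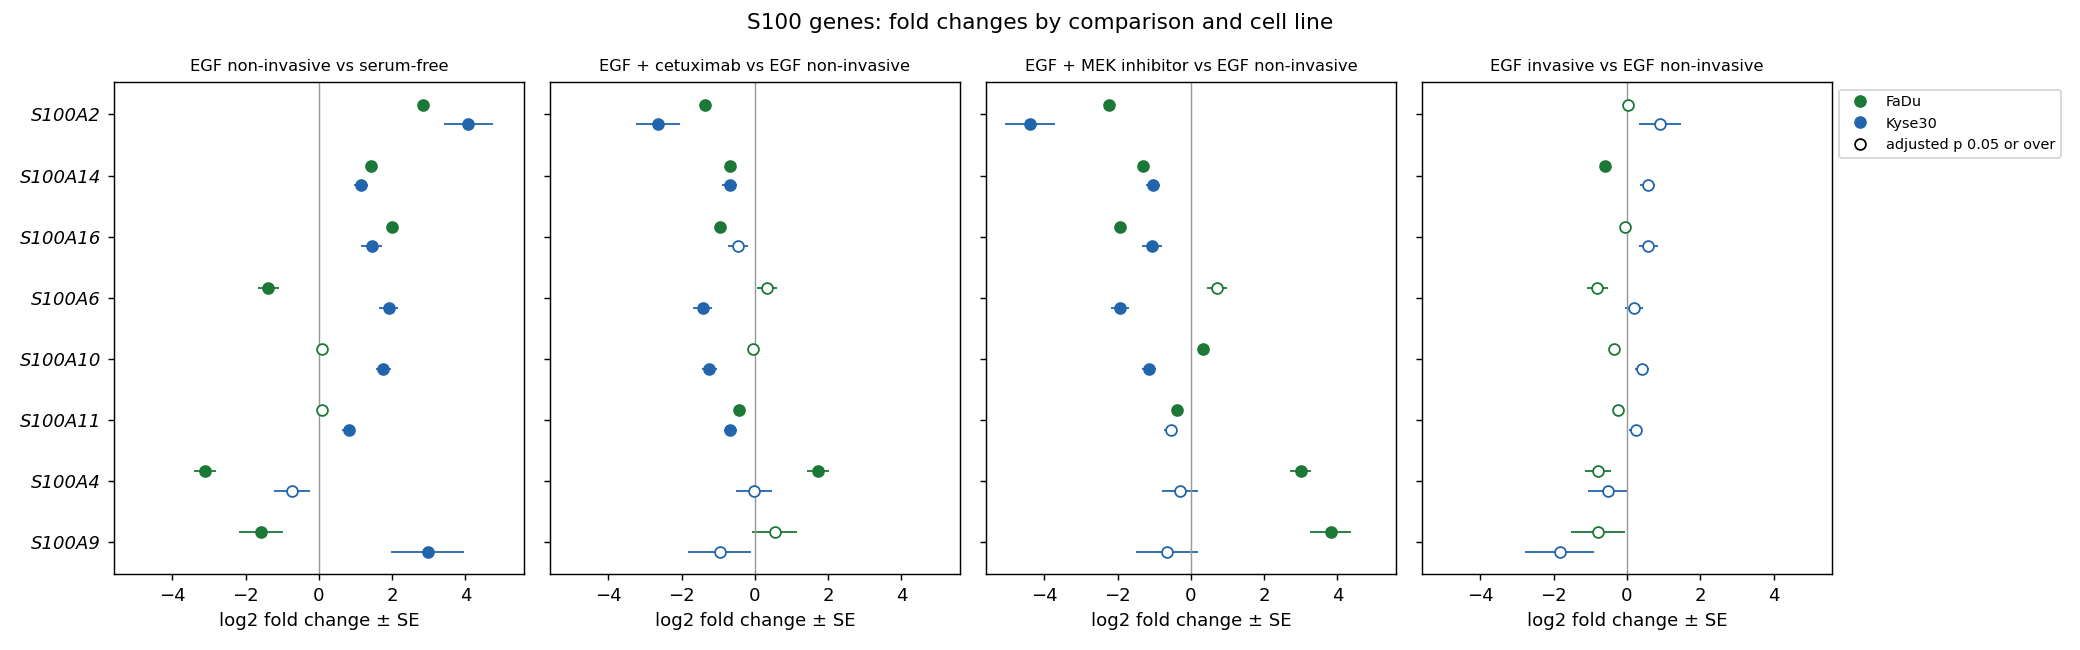
Log2 fold changes of the 8 S100 genes in 4 comparisons (horizontal axes, bars ± SE), FaDu in green above Kyse30 in blue; filled points passed an adjusted p of 0.05 in edgeR's quasi-likelihood test and open points did not. S100A2, S100A14 and S100A16 lie on the same side in both lines with EGF and with each drug, the Kyse30 cetuximab point of S100A16 being open. S100A6 lies on opposite sides, its FaDu points for the drugs being open. S100A10 has filled points on opposite sides with the MEK inhibitor.

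Between the MEK inhibitor and cetuximab, 6 of 8 genes were called in FaDu, 3 higher and 3 lower, where 19.7% of all genes were called, 8.54% higher and 11.2% lower. S100A2, S100A14 and S100A16 were lower with the MEK inhibitor and S100A4, S100A9 and S100A10 higher, with S100A14 at -0.62 ± 0.13 log2 units (edgeR adjusted p = 0.0011), S100A16 at -0.98 ± 0.14 (adjusted p = 1.11e-05) and S100A10 at 0.39 ± 0.11 (adjusted p = 0.0126). The S100A10 call was lost when only the 2 groups were fitted (0.42, adjusted p = 0.0871). In Kyse30 0 of 8 were called by edgeR and by DESeq2, where 1.18% of all genes were called by edgeR, 0.593% higher and 0.585% lower. DESeq2 called 313 of 11976 genes there. At an unadjusted p under 0.05 by edgeR the lower genes in Kyse30 were S100A2, S100A6 and S100A16. The share of all genes at that looser cut was not counted. Without the shallow library S100A2 and S100A16 were lower at -1.75 ± 0.41 (adjusted p = 0.0194) and -0.60 ± 0.15 (adjusted p = 0.015), where 4.66% of all genes were called.

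Invasive cells, set against non-invasive cells, gave few calls among these genes. In FaDu 1 of 8 was called, S100A14, which was lower, where 3.00% of all genes were called, 0.659% higher and 2.34% lower. S100A14 stood at 342, 431, 385 and 406 CPM in invasive and at 548, 565, 591 and 683 CPM in non-invasive cells, with no overlap, a difference of -0.61 ± 0.13 log2 units (edgeR adjusted p = 0.00695). In FaDu 7 of the 8 genes, all but S100A2, had a negative difference, and the median was -0.48, against -0.01 over all genes. S100A6 at -0.81 ± 0.28 (adjusted p = 0.139) and S100A10 at -0.36 ± 0.11 (adjusted p = 0.0751) were called by DESeq2 (adjusted p = 0.0402 and 0.023) and without invasive replicate 3, where S100A6 was at -1.12 (adjusted p = 0.0229) and S100A10 at -0.42 (adjusted p = 0.0497).

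The Kyse30 comparison of invasive with non-invasive cells called 0 of 8 genes by edgeR, where 0.409% of all genes were called, 0.0668% higher and 0.342% lower, and the median of the 8 was 0.32, against -0.15 over all genes. By edgeR 3 genes had an unadjusted p under 0.05, S100A10, S100A14 and S100A16. The share of all genes at that looser cut was not counted. DESeq2 and limma-voom also called 0 of 8, where they called 416 and 33 of 11976 genes. Without the shallow library 1 of 8 was called. S100A16 then averaged 835 ± 88.7 CPM in 3 invasive libraries, against 449.5 ± 97.0 CPM in 4 non-invasive libraries (SD), and was called at 0.88 ± 0.16 log2 units (edgeR adjusted p = 0.00339), where 2.10% of all genes were called. S100A2 stood at 453 ± 98.3 CPM in those 3 libraries, with a difference of 1.28 ± 0.37 (adjusted p = 0.0769), S100A14 at 0.61 ± 0.19 (adjusted p = 0.0785) and S100A10 at 0.58 ± 0.16 (adjusted p = 0.058). When the 2 non-invasive libraries with high MALAT1 were left out as well, S100A16 was at 0.66 ± 0.16 (adjusted p = 0.058) and 0 of 8 were called. Of 12147 genes 76 were called in that fit.

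The lines differed most in S100A2. In serum-free spheroids FaDu held 1102 ± 56.1 CPM and Kyse30 10.9 ± 5.69 CPM (SD, n = 4 each), a 102-fold difference (6.68 ± 0.62 log2 units, edgeR adjusted p = 1.18e-10). Of the 8 genes 6 were called between the serum-free spheroids, 4 higher and 2 lower in FaDu, where 43.5% of all genes were called, 22.0% higher and 21.5% lower. S100A10 was higher in FaDu by 1.08 ± 0.17 (adjusted p = 1.79e-06) and S100A4 by 1.18 ± 0.38 (adjusted p = 0.0111), the call for S100A4 being lost without serum-free Kyse30 replicate 2 (0.86, adjusted p = 0.0616). S100A11 was lower in FaDu at -0.49 ± 0.16 (adjusted p = 0.0122), a call lost without serum-free Kyse30 replicate 1 (-0.40, adjusted p = 0.056). S100A14 at -0.41 ± 0.17 (adjusted p = 0.0487) and S100A16 at 0.57 ± 0.24 (adjusted p = 0.0493) lay just inside the threshold. Leaving out 1 serum-free library put S100A14 outside in 6 of 8 cases, with values from -0.45 to -0.33, and S100A16 in 8 of 8 cases, with values from 0.54 to 0.59. S100A6, at 1163 ± 129.8 CPM in FaDu and 1388 ± 154 CPM in Kyse30, and S100A9 were not called.

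As to the response to EGF, 5 of 8 genes differed between the lines, all with a negative difference. Of all genes 15.7% were called, 6.20% higher and 9.48% lower. Beside S100A6, the FaDu-minus-Kyse30 difference was -2.38 ± 0.57 log2 units for S100A4 (edgeR adjusted p = 0.00257), -1.67 ± 0.24 for S100A10 (adjusted p = 3.08e-06) and -0.74 ± 0.23 for S100A11 (adjusted p = 0.0191). S100A9 was called at -4.53 ± 1.25 (adjusted p = 0.00998), but at -2.22 (adjusted p = 0.18) without non-invasive Kyse30 replicate 1. For S100A2, S100A14 and S100A16, which rose in both lines, the differences were -1.25 ± 0.71 (adjusted p = 0.255), 0.27 ± 0.24 (adjusted p = 0.51) and 0.55 ± 0.33 (adjusted p = 0.282). Without the shallow library the first and the last of these were called, S100A2 at -1.24 ± 0.41 (adjusted p = 0.0259) and S100A16 at 0.57 ± 0.20 (adjusted p = 0.0326), where 24.7% of all genes were called.

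In the response to cetuximab 2 of 8 genes differed between the lines, S100A6 and S100A10, the second at 1.14 ± 0.24 log2 units (edgeR adjusted p = 0.0065), both with a positive FaDu-minus-Kyse30 difference. Of all genes 1.31% were called, 0.561% higher and 0.751% lower. In the response to the MEK inhibitor 4 of 8 differed, all with a positive difference. Of all genes 5.10% were called, 2.83% higher and 2.27% lower. These were S100A6, S100A4 at 3.28 ± 0.57 (adjusted p = 0.0002), S100A10 at 1.46 ± 0.24 (adjusted p = 9.45e-05) and S100A9 at 4.44 ± 1.14 (adjusted p = 0.0148). S100A9 was at 2.12 (adjusted p = 0.268) without non-invasive Kyse30 replicate 1. In S100A2 the difference in MEK inhibitor response was 2.16 ± 0.70 (adjusted p = 0.0668), called by DESeq2 (adjusted p = 0.0407) and without the shallow library (adjusted p = 0.000522). S100A16 was at -0.88 ± 0.33 (adjusted p = 0.117) and was called, with a negative difference, by DESeq2 (adjusted p = 0.0456), without the shallow library (-0.90, adjusted p = 0.00188) and with 2 non-invasive Kyse30 libraries left out as well (-0.68, adjusted p = 0.0308). Between invasive and non-invasive cells 1 of 8 differed, S100A14 at -1.15 ± 0.24 (adjusted p = 0.0248), where 0.182% of all genes were called, 0.0395% higher and 0.142% lower. Without the shallow library S100A14 was called at -1.21 (adjusted p = 0.00607), as were S100A10 at -0.93 (adjusted p = 0.00997) and S100A16 at -0.94 (adjusted p = 0.0157), where 0.585% of all genes were called. With the shallow library kept, S100A14 missed the threshold when any of 9 other libraries was left out, with values from -1.20 to -1.03 and adjusted p of 0.0506 to 0.0824.

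Together the 8 genes took 0.531% ± 0.0924 of FaDu library counts with the MEK inhibitor, 0.621% ± 0.0629 with cetuximab, 1.05% ± 0.0640 in invasive cells, 1.17% ± 0.0533 in non-invasive cells and 0.479% ± 0.0320 without serum (SD, n = 4 each). In Kyse30 the shares were 0.462% ± 0.0340, 0.519% ± 0.0872, 1.15% ± 0.266, 0.959% ± 0.288 and 0.341% ± 0.0362 in the same order. Non-invasive Kyse30 replicates 1 and 3, with high MALAT1, held 0.759% and 0.665%, against 1.214% and 1.199% in replicates 2 and 4. The part of MALAT1 in these shares was not tested. Library ranges of the sums overlapped between the lines in every group except serum-free spheroids, where all FaDu libraries were higher. In invasive cells they overlapped through the shallow Kyse30 library alone, at 0.759%. The other invasive Kyse30 libraries held 1.226%, 1.264% and 1.353%, against 0.958% to 1.109% in FaDu. S100A2 took 34.6% of the members' counts in FaDu with the MEK inhibitor, 49.4% with cetuximab, 72.0% in invasive cells, 66.8% in non-invasive cells and 24.1% without serum, whereas in Kyse30 it took at most 3.01%. S100A6 took 33.6%, 41.5%, 47.8%, 51.6% and 39.3% of the members' counts in the same groups of Kyse30, the largest share in each except with the MEK inhibitor, where S100A11 took 35.3%.

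**Figure D4:**
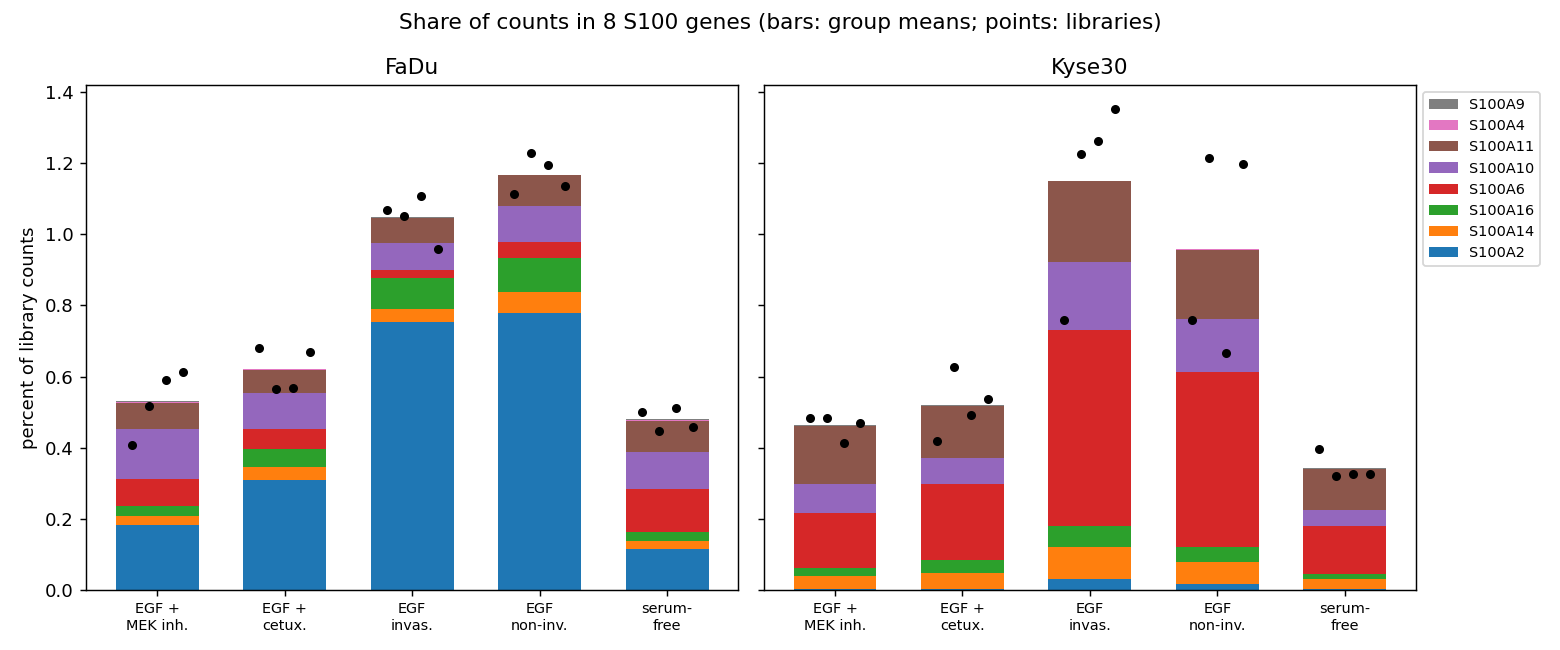
Percent of library counts in the 8 S100 genes by group; stacked bars are group means per gene and black points are the libraries' sums. The mean sums reach 1.17% in non-invasive FaDu cells, mostly S100A2, and 1.15% in invasive Kyse30 cells, the shallow library included, with S100A6 as the largest share.

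The span of the 5 group means differed among members. In FaDu it was 3.90 log2 units for S100A9, 3.66 for S100A4 and 2.88 for S100A2, and 2.24%, 2.85% and 6.33% of all genes had a span at least as wide. In Kyse30 S100A2 spanned 5.20 log2 units, reached by 0.348% of all genes. S100A11 spanned 0.43 in FaDu and 1.05 in Kyse30, which 87.2% and 49.9% of genes reached. Over the 10 groups, each gene taken as log2 CPM with 0.5 added and centred in its line, the members with the closest patterns were S100A14 and S100A16, with a root mean squared difference of 0.327 log2 units, and the farthest were S100A2 and S100A4 at 2.51. Outside the list, the genes nearest to S100A2 were FAM83A, ECM1 and CAVIN3 at 0.523, 0.531 and 0.597. Nearest to S100A16 were TPM3P5 (a pseudogene, whose counts are uncertain), C16orf74 and ARHGAP29 at 0.157, 0.188 and 0.204. Among the nearest to S100A6 were SEMA4A and CYP2R1 at 0.258 and 0.287. Nearest to S100A9 were MYO3B, DRAM1 and STARD5 at 0.462, 0.559 and 0.601. These patterns use group means, which in invasive Kyse30 cells include the shallow library. For S100A9 the non-invasive Kyse30 mean rests mostly on replicate 1, with 174 of 210 counts.

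Of 11 other S100 genes looked for, S100A3, S100A13 and S100P were in the table. S100A13, a protein that takes part in the release of fibroblast growth factor, averaged 79.6 ± 12.0, 131 ± 35.0, 210.2 ± 29.8, 190.4 ± 21.5 and 74.4 ± 4.25 CPM in FaDu with the MEK inhibitor, with cetuximab, in invasive cells, in non-invasive cells and without serum (SD, n = 4 each). It rose with EGF by 1.35 ± 0.16 log2 units in FaDu (edgeR adjusted p = 6.27e-08) and 0.70 ± 0.17 in Kyse30 (adjusted p = 0.00782), and was lower with the MEK inhibitor at -1.26 ± 0.15 in FaDu (adjusted p = 4.85e-07) and -0.98 ± 0.17 in Kyse30 (adjusted p = 0.000869). Its exons overlap those of AL162258.1 on the same strand and of S100A1 on the other strand, so its counts are uncertain. S100P, whose gene lies outside the cluster, fell in FaDu, at 2.18 ± 0.987 CPM in non-invasive cells and 14.04 ± 3.92 CPM without serum (-2.67 ± 0.69, adjusted p = 0.00217). In Kyse30 S100P was not called between these groups. It stood there at 312, 34.2, 36.1 and 45.8 CPM in non-invasive cells and at 81.8, 81.6, 62.2 and 118 CPM without serum. S100A3 was at 11.4 ± 2.98 CPM in non-invasive and 5.53 ± 1.52 CPM in serum-free FaDu cells (1.05 ± 0.37, adjusted p = 0.0187), and in Kyse30 it had 30 counts in the 4 non-invasive libraries and 0 in the serum-free ones and was too low to be tested.

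Among annexins and other intracellular partners, 18 of 20 were in the table. In FaDu 14 of 18 were called in non-invasive cells against serum-free spheroids, 9 higher and 5 lower, and in Kyse30 8 of 17 tested, 6 higher and 2 lower, where 50.0% of all genes in FaDu and 12.9% in Kyse30 were called. ANXA2, the partner of S100A10, averaged 1770 ± 93.0 CPM in non-invasive and 587 ± 12.4 CPM in serum-free FaDu cells (1.59 ± 0.10 log2 units, edgeR adjusted p = 1.72e-12), and 2769 ± 234 CPM in non-invasive and 365 ± 59.8 CPM in serum-free Kyse30 cells (2.91 ± 0.22, adjusted p = 3.61e-09). It was lower with cetuximab, at -0.83 ± 0.10 in FaDu (adjusted p = 2.3e-06) and -2.08 ± 0.22 in Kyse30 (adjusted p = 1.64e-06). With the MEK inhibitor ANXA2 was lower at -1.12 ± 0.10 in FaDu (adjusted p = 2.22e-09) and -1.67 ± 0.21 in Kyse30 (adjusted p = 1.6e-05). ANXA3 also rose in non-invasive cells, by 1.86 ± 0.33 in FaDu (adjusted p = 9.56e-05) and 2.64 ± 0.40 in Kyse30 (adjusted p = 5.71e-05), whereas ANXA9 was lower at -3.47 ± 0.62 in FaDu (adjusted p = 4.03e-05) and -1.42 ± 0.34 in Kyse30 (adjusted p = 0.00589). MYH9, the heavy chain of the myosin that S100A4 binds, rose by 1.38 ± 0.19 in Kyse30 (adjusted p = 2.64e-05). With cetuximab 5 of 18 partners were called in FaDu, all lower, and 5 of 17 in Kyse30, 1 higher and 4 lower, where 8.56% and 4.93% of all genes were called. With the MEK inhibitor 12 of 18 were called in FaDu, 3 higher and 9 lower, and 6 of 17 in Kyse30, 1 higher and 5 lower, where 29.7% and 4.56% of all genes were called. Invasive against non-invasive cells gave 0 calls by edgeR among 18 partners in FaDu and 17 in Kyse30. At an unadjusted p under 0.05 there were 3 and 2, and the share of all genes at that cut was not counted. With 3.00% and 0.409% of all genes called, counts of 0 say little about these lists.

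Of receptors and extracellular partners 9 of 13 were in the table. With EGF 7 of 9 were called in FaDu, 5 higher and 2 lower, and 5 of 9 in Kyse30, all higher, where 50.0% and 12.9% of all genes were called. PLAUR, the receptor of the protease urokinase, averaged 80.6 ± 24.1 CPM in non-invasive and 4.45 ± 0.914 CPM in serum-free FaDu cells (4.17 ± 0.87 log2 units, edgeR adjusted p = 0.000844), and 297 ± 81.0 CPM in non-invasive and 21.3 ± 7.47 CPM in serum-free Kyse30 cells (3.79 ± 0.50, adjusted p = 9.28e-06). PLAT, tissue plasminogen activator, was lower with EGF in FaDu at -2.00 ± 0.27 (adjusted p = 1.05e-06) and was higher in Kyse30 by 2.35 ± 0.61 (adjusted p = 0.0115). In invasive against non-invasive FaDu cells PLAT and the syndecan SDC4 were lower, at -1.58 ± 0.33 (adjusted p = 0.00506) and -0.85 ± 0.16 (adjusted p = 0.00213), the 2 of 9 genes of this list called there. Of all genes 3.00% were called in that comparison, 0.659% higher and 2.34% lower. In Kyse30 0 of 9 were called, where 0.409% of all genes were called. The S100-fused genes of the epidermal differentiation complex were represented by TCHH and TCHHL1, which code for trichohyalin and its relative. Both fell with EGF in FaDu, TCHH at -2.63 ± 0.64 (adjusted p = 0.00122) and TCHHL1 at -5.85 ± 0.86 (adjusted p = 4.52e-06), and rose with the MEK inhibitor, by 2.31 ± 0.64 (adjusted p = 0.0074) and 4.26 ± 0.91 (adjusted p = 0.000983). TCHHL1 stood at 2.86 ± 1.81 CPM with the MEK inhibitor, 0.112 ± 0.224 CPM in non-invasive cells and 8.34 ± 2.55 CPM without serum (SD, n = 4 each).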

How the data were processed

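RNA of 40 samples, 4 in each of 5 groups of FaDu and of Kyse30, was sequenced from transcript 3' ends with a QuantSeq kit, per the labels' protocols. The authors deposited whole-number counts per gene, for which the submitters' processing notes name STAR, HTSeq and GRCh38. The sources used here state no tool version, gene annotation or use of strand. Its rows are 12655 genes, the least abundant with 142 counts in all, and the rule that chose them is not stated. Every column was matched to a sample by its title. The cell-selection label gives non-invasive samples the same words as invasive ones, so groups follow the titles.

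From the deposited counts, edgeR 4.0.16 (R 4.3.3) fitted the 20 libraries of a line together, with TMM factors, low counts filtered by group and a robust quasi-likelihood F test. A gene was called at an adjusted p under 0.05 (Benjamini-Hochberg over all genes tested), and the SE is the absolute log2 fold change over the root of F. Differences between the lines came from 1 fit of all 40 libraries. Unique molecular identifiers are not named, and no label says whether the 4 libraries of a group come from different cultures; p-values then measure the spread between these libraries, which may be technical. Replicate pairs differed by 2.39 to 63.6 times the sampling noise (chi-square per degree of freedom), so none was merged.

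The members and lists were chosen with earlier results of these data known. All members were named, with up to 6 examples of each further list by largest called fold change and the 3 genes closest in pattern to members spanning over 2 log2 units in both lines; 1 gene that this rule names is not reported here. Deviations of same-numbered replicates had positive correlations throughout only between MEK inhibitor and cetuximab in Kyse30, at 0.108, 0.281, 0.161 and 0.371. Different numbers reached 0.154 there. The same comparison in FaDu gave -0.0641, -0.028, 0.193 and 0.335. Invasive against non-invasive Kyse30 cells gave 0.0927, 0.154, -0.0813 and 0.179. Alternatives were RLE scaling, library sizes without mitochondrial genes and MALAT1, no low-count filter, DESeq2 1.42.0, limma-voom (limma 3.58.1), a replicate block, the 2 compared groups alone, Kyse30 without its shallow library or also without non-invasive replicates 1 and 3, and leaving out each replicate. The fits were checked on simulated counts.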

Additional observations from a re-analysis of the deposited data

Results flagged for a closer look

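In 8 of 80 groups of 4 libraries 1 library stood far from the other 3, where chance flags about 1 in 20 groups. For S100A6 these were replicate 1 with the MEK inhibitor in FaDu, at 528.3 CPM against 778.3 to 816.1 CPM in the others, replicate 1 of invasive Kyse30 cells, the shallow library, at 3196 CPM, and replicate 1 of serum-free Kyse30 spheroids, at 1617 CPM against 1284 to 1334 CPM. S100A9 stood at 53.91 CPM in replicate 1 of non-invasive Kyse30 cells, against 1.84 to 4.10 CPM. S100A10 stood at 883.8 CPM in cetuximab replicate 2 of Kyse30. S100A11 was high in non-invasive FaDu replicate 4, at 1004 CPM, and low in non-invasive Kyse30 replicate 3, at 1534 CPM. S100A16 stood at 431.7 CPM in cetuximab replicate 1 of Kyse30, against 301.9 to 321.2 CPM.

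Of 32 tests of a difference between the lines, 12 passed an edgeR adjusted p of 0.05. For non-invasive cells against serum-free spheroids, the FaDu-minus-Kyse30 log2 differences were -2.38 for S100A4, -3.30 for S100A6, -4.53 for S100A9, -1.67 for S100A10 and -0.74 for S100A11. Between invasive and non-invasive cells it was -1.15 for S100A14. With cetuximab it was 1.73 for S100A6 and 1.14 for S100A10. With the MEK inhibitor it was 3.28 for S100A4, 2.64 for S100A6, 4.44 for S100A9 and 1.46 for S100A10.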

How the results depend on the processing

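Leaving out 1 replicate moved the number of members called to 1 to 3 for invasive against non-invasive FaDu cells, 0 to 1 for the same in Kyse30, 2 to 5 with cetuximab in Kyse30, 0 to 3 for the between-line difference in invasive cells and 3 to 5 between serum-free lines. Over all genes the same fits called 209 to 331, 7 to 253, 316 to 497, 4 to 74 and 4865 to 5155, in that order. With all libraries the edgeR calls were 364, 49, 590, 23 and 5504. DESeq2 called 3 members for invasive FaDu cells and 2 for the between-line difference there, where it called 625 of 12131 and 145 of 12652 genes. Without mitochondrial genes and MALAT1 in library sizes, 3 members were called with cetuximab in Kyse30, where 547 of 11976 genes were called. Without the shallow library 1 member was called for invasive Kyse30 cells, 2 between MEK inhibitor and cetuximab in Kyse30 and 3 for the between-line difference in invasive cells. Over all genes those fits called 253, 563 and 74 in the same order. With the 2 groups alone, or with 3 Kyse30 libraries left out, 2 members were called between MEK inhibitor and cetuximab in Kyse30. With the 3 left out the between-line difference in invasive cells had 0 members called. Over all genes these 3 results stood beside 603 of 11489, 725 of 12147 and 19 of 12653 called. The causes were not tested.

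Signs turned only in members that were not called. With 3 Kyse30 libraries left out, S100A9 stood at 0.86 in invasive cells, 1.56 with cetuximab and 1.88 with the MEK inhibitor in Kyse30, at -1.64 and -1.08 for the between-line differences in invasive cells and with cetuximab, and S100A14 at 0.18 for the last. S100A4 with cetuximab in Kyse30 was 0.066 under RLE scaling and DESeq2. With limma-voom S100A9 was 0.26 with cetuximab and 0.43 with the MEK inhibitor in Kyse30, and -0.16 and -0.28 for the between-line differences in invasive cells and with cetuximab, and S100A4 was 0.042 for the first of these. With the replicate block S100A9 was 0.13 with the MEK inhibitor in Kyse30, -0.24 for the between-line difference in invasive cells and -0.22 between serum-free lines.

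Single-replicate ranges that crossed 0 were, for S100A9, -0.39 to 0.82 with cetuximab in FaDu, -2.82 to 0.46 in invasive cells, -1.33 to 1.35 with cetuximab, -1.02 to 1.66 with the MEK inhibitor and -0.059 to 0.56 for MEK inhibitor against cetuximab in Kyse30, and -1.26 to 2.04 and -0.89 to 1.81 for the between-line differences in invasive cells and with cetuximab. For S100A4 they were -0.14 to 0.17 with cetuximab in Kyse30 and -0.53 to 0.14 for the between-line difference in invasive cells. The others were -0.0017 to 0.079 for S100A2 in invasive FaDu cells, -0.12 to 0.017 for S100A10 with cetuximab in FaDu, -0.0019 to 0.11 for S100A11 between MEK inhibitor and cetuximab in FaDu and -0.16 to 0.074 for S100A14 in the between-line cetuximab difference. Between MEK inhibitor and cetuximab in Kyse30, where all same-numbered correlations were positive, 0 members were called with and without the replicate block. Elsewhere the block gave 6, 1, 5, 8 and 6 calls in FaDu for EGF, invasive cells, cetuximab, MEK inhibitor and MEK inhibitor against cetuximab, and 6, 0, 4 and 5 for the first 4 in Kyse30; the FaDu gain with the MEK inhibitor was S100A6, at 0.73 (adjusted p = 0.0295). S100A9 in both lines and S100A4 in Kyse30 rest on few counts, which limits their values.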
